A study of Mus musculus with 22 samples.

Results

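The 1773 regions described here are the long ac4C peaks of protein-coding genes in mouse kidney, those whose outer ends lie more than 1000 bases apart on the genome. They make up 18% of the 9857 peaks in the deposited table and fall in 1506 genes. The table joins a list called in db/db kidneys and a list called in db/m kidneys. It held 2810 coding peaks over 1000 bases, 1366 of the db/db list and 1444 of the db/m list. Of the latter, 1037 overlapped a long db/db peak on the same strand and were represented by it, and the other 407 were kept.

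N4-acetylcytidine (ac4C) is a cytidine that carries an acetyl group, and NAT10 is the acetyltransferase known to place it on RNA. In acRIP-seq the mRNA is broken into short fragments, an antibody against ac4C pulls fragments down, and the recovered RNA is sequenced, so that a peak is a stretch where pulled-down fragments pile up. Where such a stretch runs over several exons, its outer ends on the genome also enclose the introns between them, and its genomic length is then not a length of RNA.

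Kidney RNA came from 6 db/db mice, which are homozygous for a defective leptin receptor and grow obese with diabetes, and from 5 heterozygous db/m mice, their nondiabetic controls. Each of the 11 animals gave an ac4C immunoprecipitation (IP) library and a library that did not pass through the antibody, which is called RNA-seq here and input in the table's column names. The labels give no age, sex or treatment of these animals, and the study's methods describe its db/db and db/m mice as male. The RNA was that of whole kidney tissue, so fewer cells of a type and less RNA per cell cannot be told apart in any value below.

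A start of the gene lay inside 130 of the 1426 long peaks whose gene had a RefSeq start sequence (9.12%), and inside 7.89% of the short coding peaks, those of 1000 bases or less. A gene can have several such starts. In 40 long peaks the first base of the peak was the first base of the gene. The sequences below show examples of gene starts inside long peaks. Those of Sftpa1 and Eci1 lie in long peaks that changed in IP reads. Those of Bccip and Ccdc12 lie in long peaks with 48335 and 47246 IP reads that begin exactly at the gene start. All are RefSeq sequences of GRCm38.p6, 5′ to 3′ on the gene's strand, here always the plus strand. The 100 bases before the gene start are in lower case and the first 30 transcribed bases are in capitals, since these lie inside the peak. The Sftpa1 peak begins at position -6 from the gene start, so the last lower-case bases lie inside that peak as well.
Sftpa1, chr14:41131688-41131817: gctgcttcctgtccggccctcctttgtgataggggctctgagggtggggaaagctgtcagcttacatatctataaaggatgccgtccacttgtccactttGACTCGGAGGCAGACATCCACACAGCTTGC
Eci1, chr17:24426583-24426712: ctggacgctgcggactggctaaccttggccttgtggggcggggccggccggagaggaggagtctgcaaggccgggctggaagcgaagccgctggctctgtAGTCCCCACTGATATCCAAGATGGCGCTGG
Bccip, chr7:133709233-133709362: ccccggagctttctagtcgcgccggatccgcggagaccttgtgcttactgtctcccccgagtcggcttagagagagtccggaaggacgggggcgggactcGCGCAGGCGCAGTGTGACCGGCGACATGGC
Ccdc12, chr9:110656403-110656532: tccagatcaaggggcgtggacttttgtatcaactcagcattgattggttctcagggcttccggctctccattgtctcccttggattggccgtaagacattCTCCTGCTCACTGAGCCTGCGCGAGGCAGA
Cytidine, the base that carries the acetyl group, made up 9 to 11 of the 30 capital letters in these 4 starts. Over the 145 starts held by long peaks it made up 26.4% of the first 50 transcribed bases, against 27.9% over all 21263 RefSeq start sequences of coding genes.

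The long peaks spread over a wide range of outer lengths. Their median was 3322 bases (quartiles 1817 and 7278), while that of the 4506 short coding peaks chosen by the same rule was 151 bases. Of the long peaks, 292 (16.5%) exceeded 10000 bases, 35 exceeded 50000 and 11 exceeded 100000. The members just past the limit were Nckap1 with 1002 bases, Ehmt2 with 1003 and Hypk with 1004, and the coding peaks just inside it were U2af1 with 1000 and Coq9 and Spout1 with 999 each.

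**Figure D1:**
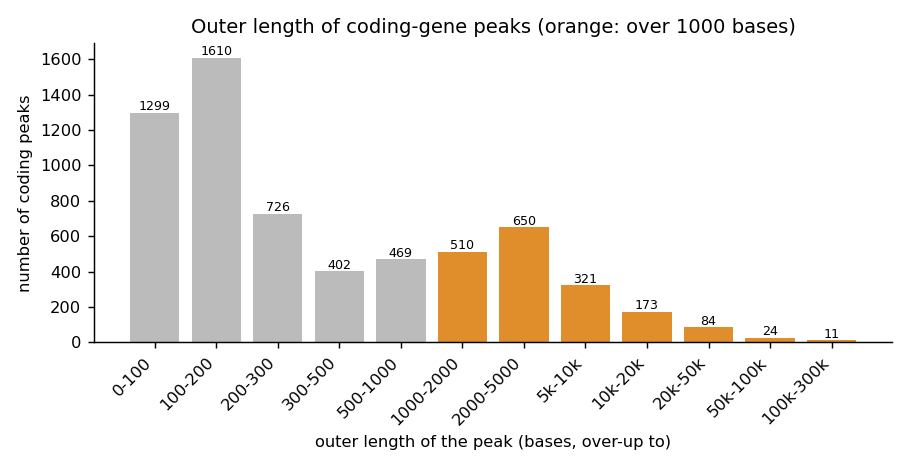
Number of coding-gene peaks (vertical axis) by outer length in bases (horizontal axis, unequal classes), with short peaks in grey and long peaks in orange. The counts fall to 402 between 300 and 500 bases and rise again to 650 between 2000 and 5000 bases.

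The longest peak lay in Tshz2, a teashirt zinc finger gene, at chr2:169633641-169883657, which is 250017 bases. It held 3191 IP reads over all animals, with 25, 22.3, 33.2, 26.8 and 36.3 CPM (reads per 1000000 reads in peaks, after TMM scaling) in the db/m animals and 27.9 to 45.6 (median 33.7) in the db/db animals. The other 4 of the 5 longest, in Kcnma1 (199472 bases), Aff3 (193237), Mgat4c (191939) and Gm7073 (188668), held between 5 and 34 IP reads over all 11 animals. These 4 extents therefore rest on few reads. Across the long peaks as a whole, length and IP reads had a Spearman correlation of -0.009, given as a description over peaks that share libraries.

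A long peak's reads are not all the reads between its ends. A long peak on the minus strand assigned to Gm10563 held 68 reads over the 22 libraries, whereas a plus-strand peak of Cdk11b inside its ends held 96140. Some peaks that overlap on opposite strands held nearly the same number of reads, and how reads were assigned to strands was not tested. Pairs of such peaks were counted over both lists, so the same place can give several pairs. Of 52 pairs of peaks in the table that overlapped by at least 90% on opposite strands, 32 had reads within 2% of each other and the rest did not. The 5 pairs with a long coding peak, all at Chd3 or Arhgap22, were among these, as with 105822 reads for Chd3 and 106197 for the antisense Gm17305. On the same strand and in the same gene, 692 peaks lay inside a long peak, none exceeded its reads and the median inner peak held 98.9% of them. These inner peaks include db/m peaks that a long db/db peak represents, some with identical ends. The 98.9% therefore does not show where the reads lie within a long peak. The number of bases behind a count is not given by the outer ends, so levels were not compared between genes.

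Placed on the RefSeq genes, 1720 of the 1773 long peaks matched a gene symbol and 97.0% of these lay within it. A long peak covered a median of 12.4% of its gene, against 0.646% for a short one, and 170 (9.88%) covered more than 50% of it. Long peaks sat nearer the middle of the gene. Their centres had a median position 58.1% of the way from the 5′ end, against 78.1% for short peaks. With genes cut into 3 equal parts, the middle part held 32.4% of long centres and 12.8% of short ones, and the part at the 3′ end held 40.9% and 57.0%. These positions count introns, and a long interval inside a gene cannot have its centre near an end.

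In 6 long peaks the ends enclosed at least 1 whole other coding gene. The peak assigned to Pak4, a p21-activated kinase, was 161975 bases long and held Gmfg, Lrfn1, Ifnl2, Ifnl3, Sycn and Nccrp1. That assigned to Xirp1 was 147205 bases long and held Gorasp1, Ttc21a and Csrnp1. Reads in such peaks cannot be assigned to 1 gene from the ends alone.

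Most genes had a single long peak (1292 of 1506), 172 had 2 and 42 had 3 or more. The most were 5 each in Col27a1, Col4a4, Myh14 and Rrbp1, followed by 4 each in Col4a3, Myh10 and Smarca4. Collagen genes, which are known for many short exons, had 41 long peaks in 20 genes and 19 short ones in 9 genes, so 68.3% of their peaks were long, against 28.2% over all coding peaks. This family was looked at after its values had been seen.

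The extent of a peak varied between the genotypes' lists. Of the 1366 long db/db peaks, 1042 overlapped a long db/m peak, 69 overlapped short ones alone and 255 overlapped none. Only 247 (18.1%) had a db/m peak with identical ends. Among the 407 db/m peaks kept, 131 overlapped a short db/db peak and 276 overlapped none. The peak caller's own false discovery rate was over 0.05 for 9.31% of the long peaks and for 22.7% of the short ones, and its fold enrichment had medians of 4.11 and 5.41.

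The libraries held 7577171 to 9862426 reads in peaks for db/db IP, 9125099 to 10293757 for db/m IP, and 3151035 to 3352535 for RNA-seq. Long coding peaks took 28.9 to 31.9% of the IP reads and 28.2 to 31.8% of the RNA-seq reads. A long peak had a median of 495 IP and 173 RNA-seq reads per library, and a short one 97.7 and 20.2. An average under 10 IP reads was found in 241 long peaks (13.6%) and in 36.1% of the short ones. Depth therefore limits the long peaks less often than the short ones, and the RNA-seq reads limit more than the IP reads do.

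Some libraries stood apart. The IP libraries of db/db animals 1 to 4 held reads of transcripts typical of lung, which are described last, and those of db/db animals 5 and 6 did not. In the 88 long peaks called when db/db animal 6 was left out, that animal's IP level lay at a median of 0.538 of the way from the db/m mean (0) to the mean of the other db/db animals (1). The same position of each other db/db animal, over the 59 to 75 peaks called without it, was 0.927 to 1.14. In RNA-seq it was 0.551 for animal 6 over 99 peaks and 0.938 to 1.18 for the others. Among db/m animals, number 2 had the highest level in several of the peaks described below, those of type IV collagen among them. The part of these libraries in the results was not tested beyond the values without them.

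The genotypes were compared by edgeR's quasi-likelihood test over all 9857 peaks, and a peak was called where its Benjamini-Hochberg adjusted p was below 0.05 and its log2 fold change, db/db over db/m, exceeded 1 in size. The words rose and fell are used for called peaks. In IP reads, 71 long peaks in 60 genes were called (4.0%), against a background of 3.32% of all peaks. Of these, 26 rose (1.47%, background 1.59%) and 45 fell (2.54%, background 1.72%). The kept db/m peaks are those without a long db/db peak, so the direction is tied to the list a peak comes from. Among the called peaks, 22 of 38 from the db/db list rose, and 4 of 33 from the db/m list did. With the db/m peak in place of the db/db peak wherever they overlap, 25 rose and 45 fell. Short coding peaks had 157 calls (3.48%), 79 up and 78 down.

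RNA-seq reads in the same peaks gave 80 calls (4.51%, background 3.95%), 28 up (1.58%, background 1.98%) and 52 down (2.93%, background 1.97%). Without TMM scaling the RNA-seq split was 35 up and 42 down. With no fold threshold, 150 long peaks (8.46%) passed the adjusted p in IP against 6.45% of all peaks, and 268 (15.1%) in RNA-seq against 11.3%. The median log2 fold change of the long peaks was -0.02 in IP and -0.04 in RNA-seq, and over all peaks it was 0.00 and -0.01. The genotypes did not overlap in IP in 133 long peaks (7.50%) against 5.77% of all peaks, and 53 of the 71 called peaks were among them. With db/db animals 5 and 6 alone against all db/m animals, 41 long peaks were called in IP, 13 up and 28 down, and 31 of these were among the 71.

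IP and RNA-seq reads changed together. Of the 71 peaks called in IP, 59 were also called in RNA-seq, each in the same direction, and 68 had the same sign. The 71 peaks had a median log2 change of 1.54 in size in IP and 1.5 in RNA-seq. A relative change, IP against RNA-seq reads, was tested in 1 model over all 22 libraries with a term for the animal, and had a median size of 0.11 in them. No long peak was called in that comparison by edgeR, against 0.0203% of all peaks, and the smallest adjusted p was 0.0734, for Scgb1a1. At an unadjusted p under 0.05 by edgeR, 141 of the 1773 long peaks passed, and 666 of all 9857 peaks did. Of the 141 long peaks, 37 also exceeded a log2 change of 1 in size (2.09%, background 2.38%). DESeq2 and limma on paired log ratios called none of the long peaks either, with 10 and 9 past the unadjusted p and the fold. Among the 71 peaks, the relative change exceeded 1 in size in 6, those of Fabp1, Col5a1, Sftpc, Sftpa1, Lamp3 and Scgb1a1, none of which had 300 RNA-seq reads over all libraries.

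**Figure D2:**
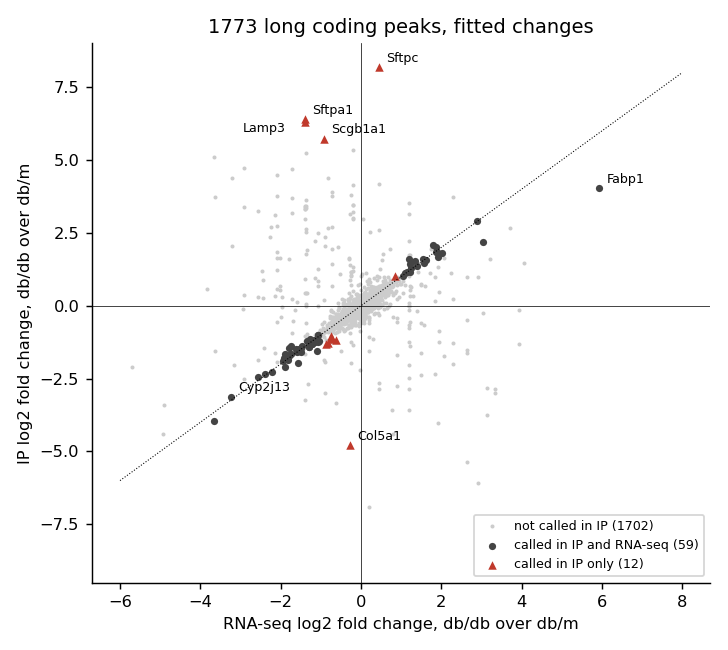
Fitted log2 fold change, db/db over db/m, of the 1773 long coding peaks in RNA-seq reads (horizontal axis) and IP reads (vertical axis), with the dotted line at equality. The 59 peaks called in both (dark points) lie along the line, Fabp1 and Col13a1 farthest from it, and of the 12 called in IP alone (red triangles) the 4 lung transcripts and Col5a1 lie far from it.

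Enzymes of fatty acid and lipid handling had long peaks in 11 of 70 listed genes. Of their 15 long peaks, 2 rose and 4 fell in IP, and 2 rose and 4 fell in RNA-seq. With no fold threshold 7 were higher and 4 lower in IP, and the median log2 change was 0.38, against 0.00 over all peaks. The summed level of the 15 peaks went the other way. It was 2824 to 3250 CPM in db/m IP and 1748 to 2403 in db/db IP. In RNA-seq it was 4931 to 6070 CPM in db/m and 2828 to 3786 in db/db animals. Both peaks of Acsm2 and both of Acsm1, which encode mitochondrial medium-chain acyl-CoA synthetases, fell. Eci1 and Fabp1 rose.

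Eci1 encodes enoyl-CoA delta isomerase 1, which prepares unsaturated fatty acids for mitochondrial oxidation. Its long peak, chr17:24426683-24433192, begins exactly at the gene start printed above. In IP it had 87.6, 64.0, 58.0, 94.9 and 76.7 CPM in db/m animals (mean 76.2 ± 15.5, SD, n = 5) and 140 to 308 CPM, median 226, in db/db animals (mean 225 ± 55.7, SD, n = 6). All db/db animals lay above all db/m animals, for which the peak was picked. Its log2 change was 1.56 ± 0.19 (SE, edgeR adjusted p = 3.9e-05) in IP and 1.61 in RNA-seq, and the relative change was -0.03 ± 0.12.

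Fabp1 encodes the liver-type fatty acid binding protein. Its peak at chr6:71199885-71203096 had 0.407, 0.318, 0.110, 1.74 and 0 CPM in db/m IP and 4.01 to 14.5, median 8.21, in db/db IP. The peak was picked for not overlapping between the genotypes, and it rested on 474 IP reads. The log2 change was 4.02 ± 0.71 (edgeR adjusted p = 0.0014) in IP. In RNA-seq all but 1 of the db/m libraries had no read, and that 1 had 2 reads.

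The longer Acsm2 peak, chr7:119563640-119573251, had 430, 822, 502, 615 and 554 CPM in db/m IP and 98.5 to 242, median 153, in db/db IP. Every db/db value was below every db/m value, for which the peak was picked. Its log2 change was -1.89 ± 0.23 (edgeR adjusted p = 3.5e-05), and it was -1.71 in the second Acsm2 peak and -1.67 and -1.55 in those of Acsm1. The relative change in these 4 peaks was between 0.03 and 0.25.

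The enzymes of ketone body use were singled out after their values had been seen. Bdh1, Oxct1 and Acat1 encode the mitochondrial enzymes that turn beta-hydroxybutyrate into acetyl-CoA, and each had 1 long peak, all of which fell. Oxct1 at chr15:4101163-4128900 had 230, 240, 247, 254 and 207 CPM in db/m IP and 64.0 to 126, median 89.3, in db/db IP. Its log2 change was -1.40 ± 0.16 in IP (edgeR adjusted p = 1.6e-05) and -1.47 in RNA-seq. Bdh1 at chr16:31447614-31455044 had 99.6, 110, 125, 102 and 101 CPM in db/m IP and 22.1 to 39.6, median 37.6, in db/db IP, a log2 change of -1.60 ± 0.17 (edgeR adjusted p = 1.1e-05). Acat1 at chr9:53595319-53598093 had 48.6, 62.5, 60.3, 60.7 and 67.8 CPM in db/m IP and 19.7 to 25.7, median 22.7, in db/db IP, a log2 change of -1.40 ± 0.17 (edgeR adjusted p = 2.8e-05). In all 3 peaks the genotypes did not overlap and the relative change was under 0.10 in size.

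Xenobiotic and steroid enzymes had long peaks in 12 of 72 listed genes, with a median log2 change of -0.78 in IP. Of the 12 peaks, 4 fell in IP and 1, that of the glutathione S-transferase Gsta4 with a log2 change of 1.29, rose. The 4 that fell were Cyp2j13, a cytochrome P450, Inmt, an indolethylamine N-methyltransferase, Hsd17b11, a 17-beta-hydroxysteroid dehydrogenase, and Adh1, an alcohol dehydrogenase. With db/db animals 5 and 6 alone, 2 of the 12 fell. Hsd17b11 at chr5:104009885-104021560 had 267, 356, 280, 274 and 336 CPM in db/m IP and 61.1 to 98.2, median 87.7, in db/db IP. Its log2 change of -1.86 ± 0.15 in IP (edgeR adjusted p = 4.0e-07) stood beside -1.81 in RNA-seq. Cyp2j13 at chr4:96068822-96071577 had 99.1, 183, 104, 153 and 140 CPM in db/m IP. In db/db IP it had 4.80 to 41.9, median 12.1, the highest being animal 6. The log2 change was -3.12 ± 0.42 (edgeR adjusted p = 8.4e-05). Inmt had a log2 change of -2.43 and Adh1 of -1.70. The peaks of the 4 genes that fell were picked for not overlapping between the genotypes.

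**Figure D3:**
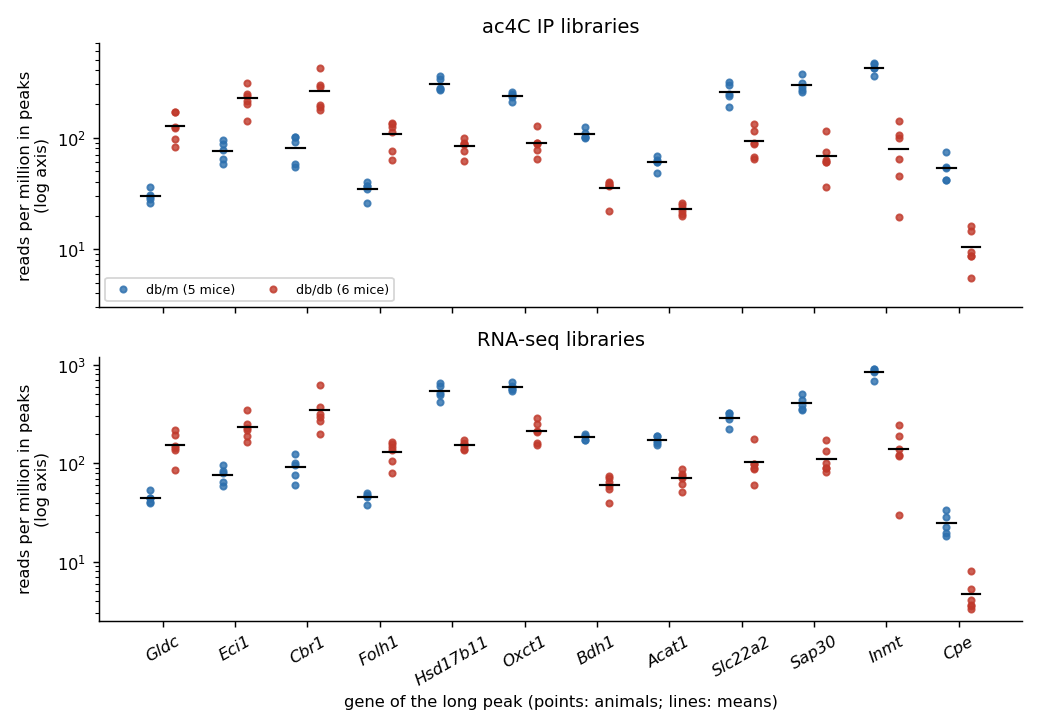
CPM (log axis) of 12 long peaks, named by gene on the horizontal axis, in the IP libraries (upper panel) and the RNA-seq libraries (lower panel). Points are animals, 5 db/m in blue and 6 db/db in red, and lines are means. Gldc, Eci1, Cbr1 and Folh1 are higher in db/db and the other 8 lower, in both kinds of library.

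Carriers and receptors of the proximal tubule, the segment that takes most solutes back from the filtrate, had long peaks in 10 of 63 listed genes. The summed level of the 13 peaks was 6020 to 8082 CPM in db/m IP and 3698 to 5770 CPM in db/db IP. Slc22a2 and Slc22a12 fell in IP and in RNA-seq, and none of the 13 rose. Slc22a2, the organic cation transporter OCT2, at chr17:12615333-12628137 had 295, 188, 235, 316 and 248 CPM in db/m IP and 63.9 to 133, median 88.6, in db/db IP. The genotypes did not overlap, and the log2 change was -1.47 ± 0.20 (edgeR adjusted p = 8.4e-05). Slc22a12, the urate transporter URAT1, fell in 1 of its 2 long peaks. That peak had a log2 change of -1.01 and lost its call, through the fold threshold, in 7 of the 11 fits that left out 1 animal and without TMM scaling. Slc7a8 and Slc27a2 had log2 changes of -0.65 and -0.35 and were not called.

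Glucose and citrate cycle enzymes had 16 long peaks in 14 of 56 listed genes, and the 2 that fell were both in Me1, malic enzyme 1, which makes NADPH from malate. The longer of these, chr9:86598823-86613634, had 186, 192, 202, 209 and 215 CPM in db/m IP and 48.8 to 92.3, median 71.6, in db/db IP. Its log2 change was -1.50 ± 0.16 (edgeR adjusted p = 7.6e-06), and that of the second peak was -1.48. With no fold threshold 4 peaks were higher in db/db. They included Tkfc, triokinase (log2 change 0.77, adjusted p = 0.0016), and Pkm, pyruvate kinase (0.54, adjusted p = 0.017), both by edgeR. In each of these peaks the genotypes did not overlap.

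No peak was called among 14 peaks of the respiratory chain (13 genes) or among 6 of cytosolic ribosomal proteins, by edgeR in IP or RNA-seq, with 2 and 1 past an unadjusted p of 0.05 in IP. DESeq2 called none there either. Their median log2 changes in IP were 0.02 and 0.27. Of 10 peaks in 9 genes of distal nephron ion transport none was called in IP, by edgeR or DESeq2, and 4 passed an unadjusted p of 0.05. With db/db animals 5 and 6 alone 2 of the 10 fell. Egf, the epidermal growth factor precursor made in the distal tubule, had 2 long peaks with log2 changes of -0.91 and -0.92 in IP (edgeR adjusted p = 0.023 and 0.015), under the fold threshold, and -0.97 and -1.06 in RNA-seq, where the second was called.

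Extracellular matrix and integrin genes had 28 long peaks in 15 of 56 listed genes, the type IV collagens of the basement membrane among them. In IP 3 of the 28 fell and none rose, and the median log2 change was -0.43. DESeq2 called 5 of them lower, and with db/db animals 5 and 6 alone 1 fell. In the Col4a4 peak at chr1:82484464-82491547, db/m IP levels were 510, 1502, 551, 535 and 582 CPM and db/db levels 234 to 459, median 346. All db/db values were below all db/m values, and db/m animal 2 stood far above the other db/m animals. The log2 change was -1.10 ± 0.25 (edgeR adjusted p = 0.011). The call was lost without db/m animal 2 and without db/db animal 5. The other 4 Col4a4 peaks had log2 changes of -1.17 to -0.81 and were not called. Not all type IV collagen peaks were lower. The Col4a2 peak at chr8:11433757-11437644 was higher in db/db IP (mean 72.5 CPM) than in db/m IP (mean 47.4 CPM), without overlap. Its log2 change was 0.61 ± 0.19 (edgeR adjusted p = 0.059), and it was not called.

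One of the 4 Col4a3 peaks fell, that at chr1:82680820-82682764, with 163, 503, 155, 163 and 180 CPM in db/m IP and 46.1 to 186, median 92.3, in db/db IP. The genotypes overlapped, with a log2 change of -1.24 ± 0.34 (edgeR adjusted p = 0.033). That call ended when any of 6 animals was left out, among the db/db group animals 1, 2, 4 and 5 and among the controls animals 2 and 5. The third peak that fell, in Col5a1, rested on 93 IP reads. It had 0 to 2 reads in each db/db IP library, 0 reads in db/m animal 1 and 54 in db/m animal 2, and 9 of the 11 fits without 1 animal no longer called it.

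Col27a1, which encodes a fibrillar collagen of cartilage and was not on that list, moved the other way. Of its 5 long peaks 4 rose in IP, with log2 changes of 1.81 to 2.0, and the fifth had 1.32 and was not called. The peak at chr4:63281104-63293513 had 6.61, 37.1, 20.9, 18.8 and 27.3 CPM in db/m IP and 43.8 to 177, median 77.5, in db/db IP. It was picked for not overlapping between the genotypes. Its log2 change was 2.0 ± 0.39 (edgeR adjusted p = 0.0034). In the other 3 peaks that rose the genotypes overlapped through db/db animal 6. The 5 peaks share 1 transcript and are not independent of each other. Col13a1, another collagen, rose by 2.19 on the log2 scale, with 18 reads in the lowest db/db IP library and 53 in the highest db/m IP library. That call (edgeR adjusted p = 0.037) was lost in 8 of the 11 fits that left out 1 animal, those without db/db animal 2, 3, 4 or 5 and those without db/m animal 1, 2, 3 or 4.

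The largest other rises were in Gm20425, Gldc, Cbr1, Folh1, Stim1, Fkbp5 and Uroc1. The Gm20425 peak at chr9:103219884-103221003 lies within Trf, the transferrin gene. It had 8.14, 4.66, 0.659, 13.6 and 4.01 CPM in db/m IP and 39.5 to 54.5, median 45.9, in db/db IP, a log2 change of 2.90 ± 0.44 (edgeR adjusted p = 0.00033). Gldc encodes the glycine decarboxylase of the glycine cleavage system. Its peak at chr19:30143406-30145305 had 29.1, 36.4, 30.9, 25.7 and 28.1 CPM in db/m IP and 82.2 to 170, median 123, in db/db IP, a log2 change of 2.09 ± 0.21 (edgeR adjusted p = 4.2e-06). Cbr1, a carbonyl reductase, rose by 1.69 on the log2 scale, Folh1, a folate hydrolase of the brush border, by 1.62, and Stim1, the calcium sensor of the endoplasmic reticulum, by 1.59. Fkbp5, a co-chaperone of the glucocorticoid receptor that glucocorticoids are known to induce, rose in both of its long peaks, by 1.52 and 1.37. Uroc1, urocanase of histidine breakdown, rose by 1.47. The named peaks of these 7 genes were picked for not overlapping between the genotypes, and the second Fkbp5 peak did not overlap either.

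Among the largest falls, chromatin genes stood beside the enzymes and were grouped after their values had been seen. Both long peaks of Smarca2, an ATPase of the SWI/SNF remodelling complex, fell. The longer, chr19:26710666-26747732, had 352, 427, 363, 327 and 407 CPM in db/m IP and 80.2 to 144, median 108, in db/db IP, a log2 change of -1.79 ± 0.17 (edgeR adjusted p = 2.1e-06). The shorter had a log2 change of -2.27. All 3 long peaks of Chd3, the ATPase of a nucleosome remodelling and deacetylase complex, fell, by 1.42, 1.30 and 1.14 on the log2 scale. One of them cannot be told apart from the antisense Gm17305, as its reads agree within 2% with those of that gene's peak. None of the 4 long peaks of Smarca4, the other SWI/SNF ATPase, was called by edgeR in IP, with log2 changes of -0.46 to 0.21.

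Sap30, a subunit of the SIN3 histone deacetylase complex, had 307, 268, 370, 254 and 286 CPM in db/m IP and 36.4 to 114, median 62.1, in db/db IP at chr8:57485597-57487683. Its log2 change was -2.12 ± 0.22 in IP (edgeR adjusted p = 6.8e-06) and -1.89 in RNA-seq. Cpe, carboxypeptidase E, which trims peptide hormones, had 54.1, 53.4, 42.0, 74.9 and 41.8 CPM in db/m IP and 5.56 to 16.1, median 9.04, in db/db IP at chr8:64593138-64594992. This was a log2 change of -2.35 ± 0.27 (edgeR adjusted p = 1.6e-05). Tmem237, a protein of the base of the cilium, fell by 1.97. The genotypes did not overlap in these 3 peaks, which were picked for it.

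Splicing and RNA-binding genes had the most long peaks of any list, 52 in 42 genes, with a median log2 change of -0.01 in IP. Rbm3, a cold-induced RNA-binding protein, was the only one called. At chrX:8143249-8144623 it had 177, 162, 142, 138 and 186 CPM in db/m IP and 261 to 434, median 356, in db/db IP, without overlap. The log2 change was 1.13 ± 0.15 in IP (edgeR adjusted p = 6.3e-05) and 1.08 in RNA-seq. Of 45 peaks in 41 ubiquitin and proteasome genes, 2 fell, that of Trim7 and 1 of the 2 of Usp8, with log2 changes of -1.21 and -1.0. Of the 11 fits that left out 1 animal, 7 no longer called Trim7 and 4 no longer called Usp8. Neither remained called with db/db animals 5 and 6 alone, where no peak of this list passed.

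Of the 26 genes listed for NAT10, senescence and tubular injury, Ncl alone had long peaks. Ncl encodes nucleolin, and its 3 long peaks had log2 changes of -0.10, 0.10 and 0.24 in IP, with none called by edgeR or DESeq2 and none under an unadjusted p of 0.05. Nat10, Pappa, Actb and Tgfb1 had no long peak under the rule.

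The 5 long peaks with the most IP reads lay in Ptms, Calr, Ptma, Hsp90aa1 and Snrnp70. Ptms and Ptma encode parathymosin and prothymosin alpha, small acidic nuclear proteins, Calr a calcium-binding chaperone and Hsp90aa1 a cytosolic one, and Snrnp70 a protein of the U1 spliceosomal particle. Ptms at chr6:124914093-124917828 had 21892, 26404, 21342, 20027 and 20896 CPM in db/m IP and 13106 to 19375, median 14953, in db/db IP. All db/db values lay below all db/m values. The log2 change was -0.48 ± 0.13 (edgeR adjusted p = 0.031), under the fold threshold, and the exact two-sided permutation test over all 462 splits of the animals gave p = 0.0065, or 0.032 after Benjamini-Hochberg adjustment over 20 such tests of peaks chosen for length, reads or IP to RNA-seq ratio. Hsp90aa1 had a log2 change of -0.92 (edgeR adjusted p = 0.00030), with a permutation p of 0.0022, the smallest the design allows. Calr had -0.54, Ptma -0.07 and Snrnp70 0.20, with edgeR adjusted p of 0.068, 0.78 and 0.34.

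The ratio of IP to RNA-seq reads sets the IP reads counted over a whole peak against the RNA-seq reads counted there. It is not the peak caller's fold enrichment and need not follow it. It was taken per animal as the difference of log2(CPM + 1) in the 1305 long and 1715 short coding peaks with an average of at least 50 RNA-seq reads. The median over long peaks was -0.15 (quartiles -0.54 and 0.31) and over short peaks -0.17 (quartiles -0.58 and 0.28). Within single animals the long median exceeded the short by -0.01 to 0.06 on the log2 scale, and it was higher in 9 of 11 animals. A ratio over 1 on the log2 scale occurred in 6.51% of long and 6.12% of short peaks. By length, the median was -0.22 in 373 peaks of over 1000 and up to 2000 bases, -0.11 in 494 of up to 5000, -0.15 in 248 of up to 10000 and -0.12 in 190 longer ones, while the spread over long peaks was 0.65 (SD). The values are relative to the reads in peaks, so a shift common to all peaks would not appear.

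**Figure D4:**
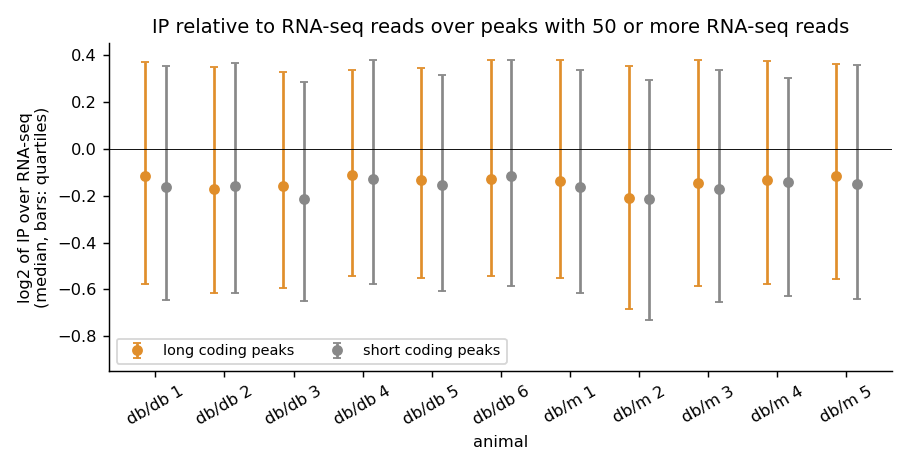
Log2 ratio of IP to RNA-seq CPM (vertical axis) in each animal (horizontal axis) for the 1305 long (orange) and 1715 short (grey) coding peaks, as the median with quartiles over peaks. The medians of both sets lie between -0.21 and -0.11 in all 11 animals.

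The highest ratios were in Hnrnpll (2.76 ± 0.45, SD, n = 11 animals), a splicing regulator, Col27a1 (2.33 ± 0.20), Senp3 (2.23 ± 0.32), a SUMO protease, Col4a4 (2.04 ± 0.24) and Crocc (2.02 ± 0.42), the ciliary rootlet protein. In the Hnrnpll peak, chr17:80053600-80061974, IP levels were 148, 535, 155, 163 and 171 CPM in db/m animals while the RNA-seq levels were 21.2, 32.8, 25.8, 23.0 and 28.5. The lowest ratios were in Xirp1 (-2.02 ± 0.37), Acat1 (-1.55 ± 0.17), Pak4 (-1.51 ± 0.29), Hspa9 (-1.45 ± 0.16), a mitochondrial chaperone, and Tmem189 (-1.40 ± 0.14). Xirp1 and Pak4 are among the peaks whose ends enclose whole other genes, and the Tmem189 peak holds peaks of Ube2v1 on the same strand. The caller's false discovery rate was 0.97 for the Xirp1 peak. The caller's fold enrichment of the Pak4 peak was 29.2, despite its low ratio. Of these 10, Col27a1, Col4a4 and Acat1 were called between genotypes in IP and none in the relative change.

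Markers of other tissues and cells were checked among the long peaks. Podocyte and endothelial genes had 3 long peaks and immune genes 2, none of these list members called by edgeR or DESeq2 in IP, with 2 and 0 past an unadjusted p of 0.05. The complement gene C1qa had 13.9 ± 6.31 CPM (SD, n = 5) in db/m IP and 13.4 ± 10.3 (SD, n = 6) in db/db IP. The adipocyte list had 2 long peaks, both of Ucp1, with a summed level of at most 0.483 CPM in any IP library. No gene of the liver list had a long peak. Cxcl9, a chemokine that draws T cells and is on none of these lists, was singled out after its values had been seen. Its long peak at chr5:92323848-92325094 held 4, 0, 2, 0, 0 and 4 reads in db/db IP and 3, 18, 17, 72 and 35 in db/m IP. It fell in IP (log2 change -3.97 ± 1.03, edgeR adjusted p = 0.025), where the genotypes overlapped and 5 of the 11 fits without 1 animal lost the call. In RNA-seq it held 18 reads in all and also fell (log2 change -3.66, edgeR adjusted p = 0.0020), without overlap. These lists' part in the results above was not tested.

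The lung list had 5 genes with long peaks, and 4 of their 5 peaks rose in IP. Sftpc and Sftpa1 encode surfactant proteins of alveolar type II cells, Lamp3 marks the same cells, and Scgb1a1 encodes the secretoglobin of airway club cells. The Sftpc peak at chr14:70520941-70524081 held 193, 151, 135, 45, 0 and 0 reads in the IP libraries of db/db animals 1 to 6 and 0, 1, 0, 0 and 0 in those of db/m animals 1 to 5. Sftpa1 held 96, 74, 53, 26, 0 and 0 reads and 0, 0, 2, 0 and 0. Animals 1 to 4 of the db/db group thus had all but a few of the reads, and animals 5 and 6 had none.

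Scgb1a1 at chr19:9083636-9087958 held 89, 75, 78, 24, 2 and 2 reads in db/db IP and 1, 3, 0, 0 and 0 in db/m IP. Lamp3 at chr16:19676039-19706305 held 22, 16, 13, 5, 0 and 0 and no read in db/m IP. Sftpd, the fifth peak, held 8, 7, 5, 3, 0 and 0 and 1, 0, 0, 0 and 0. The 4 IP libraries shared the reads of each transcript in a like way. Animal 1 had 33.5 to 39.3% of each, animal 2 had 28.2 to 30.4%, animal 3 had 21.3 to 29.3% and animal 4 had 8.59 to 13.04%, over the 5 peaks.

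The RNA-seq libraries of the same animals held 1, 2, 3 and 0 reads over all 5 peaks, and no RNA-seq library held more than 3. A count of 0 allows up to 3 reads, which is at most 0.396 CPM in an IP and 0.952 in an RNA-seq library, before scaling and for counting error only. Adjusted p by edgeR in IP was 0.0026 for Sftpc, 0.0093 for Sftpa1, 0.0046 for Scgb1a1 and 0.048 for Lamp3, whose call was lost in 9 of the 11 fits that left out 1 animal. With db/db animals 5 and 6 alone none of the 5 was called. Leaving out the lung list, 67 long peaks were called in IP, 22 up and 45 down. The source of these reads was not tested.

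**Figure D5:**
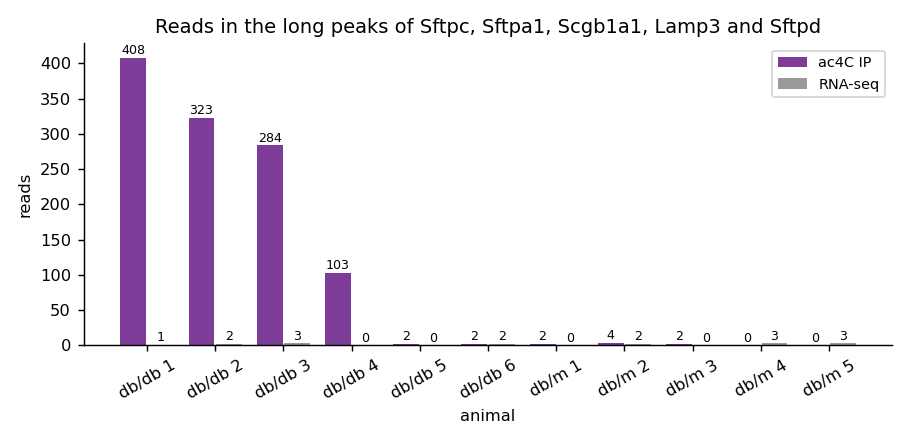
Reads (vertical axis, from 0) in the 5 long peaks of Sftpc, Sftpa1, Scgb1a1, Lamp3 and Sftpd in the IP (purple) and RNA-seq (grey) library of each animal (horizontal axis). The IP libraries of db/db animals 1 to 4 held 408, 323, 284 and 103 reads, and each other library held 4 or fewer.

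The lung peaks of Sftpc, Sftpa1 and Scgb1a1 belong to a group of long peaks with IP reads and almost no RNA-seq reads. Those of Lamp3 and Sftpd had fewer than 100 IP reads and are not in it. At least 100 IP reads with at most 11 RNA-seq reads over all animals were found in 13 long peaks (0.733%). Beside Sftpc, Sftpa1 and Scgb1a1 these were Arhgef4, Catsperg1, Kctd15, Rps6ka3, Smpd3, Sugp2, Zfp710 and the collagen genes Col9a3, Col11a2 and Col24a1. None of these other 10 was called in IP.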

How the data were processed

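Each of 11 animals, 6 db/db and 5 db/m, gave 2 kidney libraries, IP and RNA-seq. The authors mapped clean reads, made 1 list of ac4C peaks for each genotype and deposited 1 table of raw read counts for each peak and library. The genome was GRCm38 per the submitters' processing notes, and the aligner, peak caller and counter are not given in the sources used here. The authors' table also gives the caller's fold enrichment, its p-value and false discovery rate, and the authors' own comparison of the genotypes as a deposited log2 fold change with p-values, which was not used.

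Counts were tested over all 9857 peaks with edgeR 4.0.16 (R 4.3.3; TMM, glmQLFit, glmQLFTest, no filter on low counts). Either kind of library had its own fit. The relative change was the interaction of library type and genotype with a term for the animal, and in that fit the spread came from the trend over all peaks, with no weight on a peak's own. CPM are relative to the reads in peaks, after TMM scaling. The labels number the animals within a genotype and say nothing of shared litters, so p-values measure the spread between these animals. Single values were compared by exact two-sided permutation tests with scipy 1.17.1. The tests were checked on simulated counts. Depth, in reads in peaks per library, is given with the results, and counting intervals and limits cover counting error only.

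The long peaks, gene lists and tests were chosen with earlier results of these data known. Peaks were named, 1 for each gene, by these rules: for each direction the 10 largest IP changes among called peaks without overlap of the genotypes, the longest 5, the 5 with most IP reads, the 5 highest and 5 lowest IP to RNA-seq ratios, those nearest the length limit, up to 4 for each list by p, and the genes with most long peaks. The ketone body enzymes, the chromatin genes, Col13a1, Cxcl9, Sftpd, Gsta4, Egf and further peaks of a named gene were added after their values were seen. Alternatives were DESeq2 1.42.0, limma 3.58.1, other scaling, filters, thresholds and overlap rules, a block for the animal number and leaving out each animal. The comparisons without db/db animals 1 to 4 and without the lung list were added after seeing the data. Exon positions were not used here, so the bases behind a long peak's reads were not analysed. Some results are not reported here.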

Additional observations from a re-analysis of the deposited data

Results flagged for a closer look

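In 28 named peaks, 112 groups of 5 or 6 libraries were tested for 1 animal that stood apart from its group by Dixon's criterion, and 18 did. In 7 of these the other libraries had no read, so that any read stood apart by construction. Among the 101 groups with more than 1 library above 0, 11 stood apart, where chance gives about 5.05. The groups share animals and are not independent.

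Of the 18, 6 were the libraries of db/db animal 6. Its IP level was 18.1 CPM in Uroc1 (others 26.9 to 31.2), 41.9 in Cyp2j13 (others 4.80 to 15.9), 28.4 in Tmem237 (others 9.94 to 15) and 64.9 in Adh1 (others 13 to 31.5). Its RNA-seq level was 74.9 CPM in Cyp2j13 (others 12.6 to 33.0) and 103 in Adh1 (others 46.1 to 56.4). In each of these the animal lay on the side of the db/m animals.

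The shorter Smarca2 peak stood apart in db/m animal 2 in both kinds of library, with 245 CPM in IP (others 56.2 to 87.5) and 274 in RNA-seq (others 50.4 to 99.5). Bdh1 was at 22.1 CPM in the IP library of db/db animal 5 (others 37.1 to 39.6). Gm20425 was at 129 CPM in the RNA-seq library of db/db animal 3 (others 77.6 to 89.4). Fabp1 was at 1.74 CPM, or 16 reads, in db/m animal 4 in IP (others 0 to 0.407).

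The remaining 7 were db/m libraries with 1 or 2 reads where the other db/m libraries had none. They were 0.654 CPM for Fabp1 in RNA-seq of animal 3, 0.106 and 0.317 for Sftpc in IP of animal 2 and RNA-seq of animal 5, 0.220 and 0.319 for Sftpa1 in IP of animal 3 and RNA-seq of animal 4, 0.319 for Lamp3 in RNA-seq of animal 4, and 0.102 for Sftpd in IP of animal 1.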

How the results depend on the processing

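Among 254 results under the alternatives, 4268 values kept direction and side of the threshold, 113 fell below it, 35 passed it and 2 reversed. The reversals were Sftpc at -1.37 and Sftpa1 at -2.08 in IP with db/db animals 5 and 6 alone, both from 0 to 2 reads a library. That choice gave 41 called long peaks in IP in place of 71. With no fold threshold the counts were 150 in IP and 268 in RNA-seq. Leaving out 1 animal gave 59 (without db/db animal 5) to 88 (without db/db animal 6) in IP, 67 to 99 in RNA-seq for the same animals, and 0 to 1 in the relative change, the 1 being Scgb1a1. With 1 peak for each group of overlapping peaks the relative change had 1 call. Without TMM scaling 45.5% of the RNA-seq calls were rises, against 35.0% with it. A replicate block for the animal number gave 100 calls in IP and 101 in RNA-seq, and the relative change without it gave 0. Animals of the same number deviated together for numbers 1 and 2 (r = 0.19 and 0.21 in IP, 0.35 and 0.51 in RNA-seq) but not for 3, 4 and 5 (r = -0.25 to -0.02 and -0.40 to -0.04), and nothing in the labels pairs them, so the numbers were not taken as pairs. The cause of these shifts was not tested. Low RNA-seq counts limit the relative change in the shallow peaks.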
